A study of Bos taurus with 8 samples.

Results

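Haptoglobin (HP), resistin (RETN) and tissue-nonspecific alkaline phosphatase (ALPL) were followed in blood neutrophils of dairy cows around calving. The 3 genes are covered by 8 of the 43653 probes on a bovine expression array, taken as all probes whose accession belongs to any of them, out of 12639 genes with a symbol. They were chosen because earlier results of the same arrays had shown higher signal after calving, so their differences between the times are given as a description, without a test. The C+7 group was sampled 7 days after the actual calving and the C-14 group 14 days before the expected calving, with 4 arrays each. All cows were periparturient female Holstein Friesian animals, and neutrophils were isolated from jugular vein blood. Only 3 cows are named in the design for 4 arrays at each time. If that number holds, some arrays of each time share an animal, and both times may hold the same animals. Which array came from which cow is not labelled. How the neutrophils were purified and the age of the cows are not given in the sources used here.

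Haptoglobin captures haemoglobin released from red cells and is secreted by the liver as an acute phase protein. It serves in cattle as a blood marker of inflammation, for instance after calving, and developing human neutrophils also make it and store it in their specific granules. Resistin is a small cysteine-rich secreted protein, named in mice for its effect on insulin action, that fat cells make in mice and myeloid cells in humans. ALPL is an enzyme held on the outer cell surface by a glycosylphosphatidylinositol anchor, where it removes phosphate from pyrophosphate, nucleotides and pyridoxal phosphate, and in human neutrophils it marks the secretory vesicles.

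Signal on the arrays was low. The extraction software called 387 to 2746 probes well above background on the C+7 arrays and 761 to 4486 on the C-14 arrays, with replicate 4 dimmest at both times. Over probes detected on the 6 brighter arrays, those arrays correlated with each other at 0.69 to 0.95, C-14 replicate 4 with them at 0.53 to 0.70, and C+7 replicate 4 with them at -0.08 to 0.26. The C+7 arrays shared 1 slide and the C-14 arrays another, with median local background of 25 to 30 on C+7 arrays and 41 to 45 on C-14 arrays. Slide and time therefore cannot be told apart in any value below. Neutrophil identity was only partly visible at this signal: of 10 neutrophil markers on the array 7 were well above background on at least 1 array, among them S100A12 and MMP9, while S100A8 and ITGAM were not on any.

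HP was bright on 3 of 4 arrays after calving. The brightest HP probe, A_73_P400651, had a background-subtracted intensity of 239, 435, 288 and 8.63 on C+7 replicates 1 to 4, against 15.3, 5.28, 46.9 and -4.77 on C-14 replicates 1 to 4. It was well above background on C+7 replicates 1 to 3 and on C-14 replicate 3 alone, and the times did not overlap on the 6 brighter arrays but did once both dim replicates were counted. Before any subtraction, the median brightness of the spot was 259, 466, 322 and 53 on the C+7 arrays, against 68, 58, 93 and 44 on the C-14 arrays, so the 6 brighter arrays were split by time before the subtraction as well. Ranked within its array, this probe was exceeded by 0.816%, 0.674% and 0.807% of all probes on C+7 replicates 1 to 3, against 13%, 24.3% and 5.60% on C-14 replicates 1 to 3, a comparison that needs no scaling between arrays.

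RETN was detected at both times and differed less. Its brightest probe, A_73_P038071, had a background-subtracted intensity of 87.2, 110 and 107 on C+7 replicates 1 to 3 and 0.971 on replicate 4, against 20.1, 40.3, 48.3 and 3.30 on C-14 replicates 1 to 4. It was well above background on 3 of 4 C+7 arrays and on 2 of 4 C-14 arrays. On the 6 brighter arrays the mean was 101 ± 12.3 at C+7 and 36.2 ± 14.6 at C-14 (SD, n = 3 each), a ratio of 2.80 without scaling between arrays. The 3 C+7 arrays lay close together and above all C-14 arrays. Of all probes on the array, 1.58%, 1.81% and 1.71% were brighter on C+7 replicates 1 to 3, against 10.6%, 3.55% and 5.49% on C-14 replicates 1 to 3. On replicate 4, where the probe was not well above background at either time, the order was reversed, with 44.6% at C+7 and 23.0% at C-14.

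ALPL was measured after calving only. Its brightest probe, A_73_P108351, had a background-subtracted intensity of 128, 237, 462 and -2.65 on C+7 replicates 1 to 4, against 11, 1.23, 15.0 and 5.91 on C-14 replicates 1 to 4. It was well above background on 3 of 4 C+7 arrays and on 0 of 4 C-14 arrays, so its C-14 values bound the level and do not measure it. The spread among the C+7 arrays was the widest of the 3 genes, with a mean of 276 ± 171 for ALPL, 321 ± 102 for HP and 101 ± 12.3 for RETN over replicates 1 to 3 (SD, n = 3). Replicate 3 was highest for ALPL and replicate 2 for HP, so the arrays with most signal differed between these genes.

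**Figure D1:**
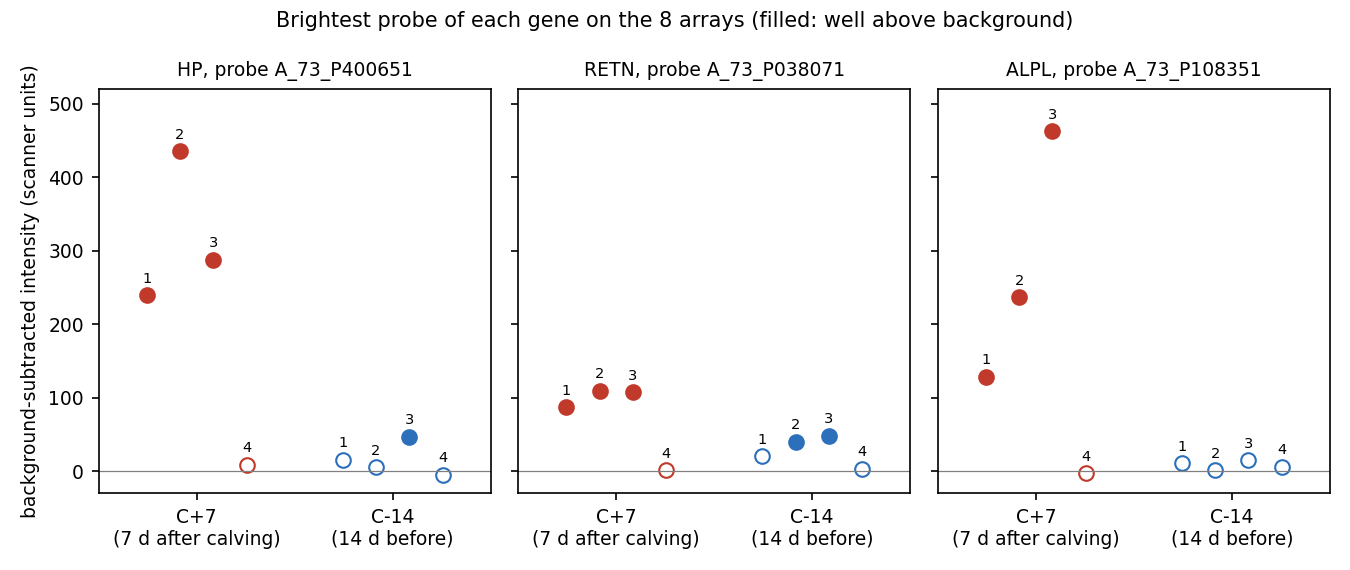
Background-subtracted intensity (scanner units, vertical axis) of the brightest probe of HP, RETN and ALPL on the 4 C+7 arrays (left of each panel) and the 4 C-14 arrays, each point 1 array labelled with its replicate and filled where the probe was well above background. Replicates 1 to 3 of C+7 sit above every C-14 array in each panel (HP 239 to 435, RETN 87.2 to 110, ALPL 128 to 462), and C+7 replicate 4 lies near 0.

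The other 5 probes of these genes did not show the same picture. The second RETN probe, A_73_117202, was well above background on more arrays before calving than after, with 25.6, 4.75, 16.2 and 0.142 on C+7 replicates 1 to 4, against 28.1, 26.8, 20.5 and 9.43 on C-14 replicates 1 to 4. Its mean on the 6 brighter arrays was 15.5 ± 10.5 at C+7 and 25.2 ± 4.06 at C-14 (SD, n = 3 each), and the sets of arrays overlapped here. The RETN probes thus lay in opposite directions without scaling between arrays. With the scaling and floor described below, the log2 difference of this probe was 0.043, with 2 C+7 and 3 C-14 arrays at the floor. With all C-14 values at the floor that difference could not be negative, so it does not settle the direction of this probe. The second HP probe, A_73_104190, had 11.9, 18.2, 62.7 and -3.09 on the C+7 arrays, against 50.3, 0.385, 0.405 and -1.99 on the C-14 arrays. It was well above background on 1 array of each time, and the times overlapped.

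The remaining HP probe, A_73_P101951, stayed below that mark on all 8 arrays, with 0.247 to 11.8 at C+7 and -3.26 to 7.02 at C-14. So did the other ALPL probes. A_73_121258 ranged over -9.74 to -3.73 at C+7 and -9.19 to -3.58 at C-14, and A_73_P108006 over -0.565 to 3.76 at C+7 and -5.17 to 2.89 at C-14. Thus 1 of 3 HP probes, 1 of 2 RETN probes and 1 of 3 ALPL probes separated the times on the 6 brighter arrays. All probes of a gene carry the same RefSeq accession in the scanner files, so the files do not show which exon or transcript form each one reads.

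**Figure D2:**
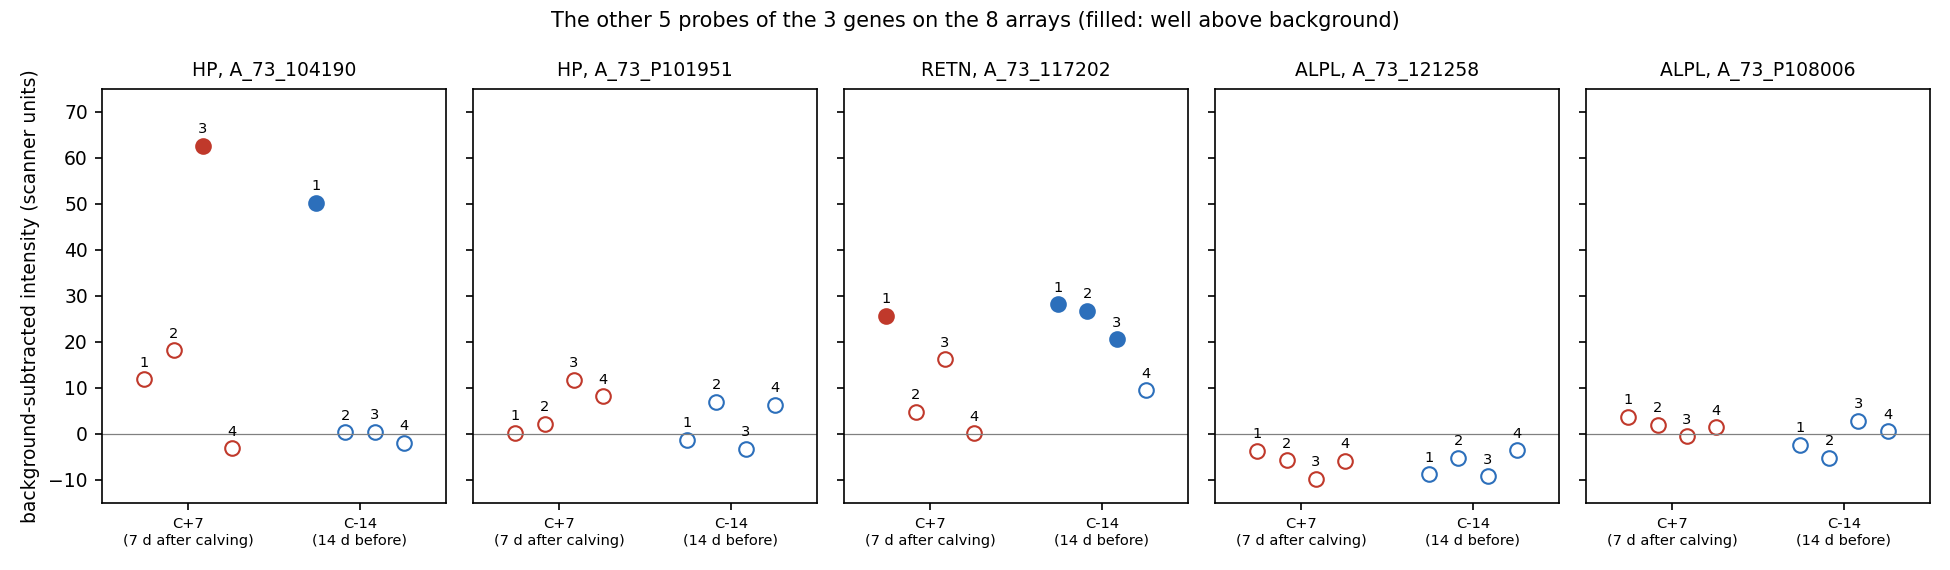
Background-subtracted intensity (scanner units, vertical axis) of the other 5 probes of HP, RETN and ALPL on the 4 C+7 arrays (left of each panel) and the 4 C-14 arrays, filled where well above background and labelled with the replicate. The axis ends far below that of the brightest probes, both ALPL probes and HP A_73_P101951 stay unfilled, and RETN A_73_117202 is filled on 1 C+7 array and 3 C-14 arrays.

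To set the 3 genes beside the rest of the array, the 6 brighter arrays were scaled to the 75th percentile of 1091 probes well above background on all of them, raised to a common floor (log2 -3.54) and fitted with limma across 1954 features. The scaling factor was 272 to 366 on C+7 arrays and 342 to 725 on C-14 arrays, so on average scaling raised C+7 values relative to C-14 values. The log2 difference, C+7 minus C-14, was 3.53 for HP (SE 0.15), 3.16 for ALPL (SE 0.45) and 1.75 for RETN (SE 0.17), the n being 3 arrays at each time. In scaled log2 signal HP was at -0.18, 0.25 and -0.09 on C+7 replicates 1 to 3, ALPL at -1.08, -0.63 and 0.59, and RETN at -1.64, -1.74 and -1.51. At C-14, HP and ALPL lay at the floor on all 3 arrays and RETN on replicates 1 and 3, with -3.08 on replicate 2.

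Measured from that floor, HP was at least 11.5-fold and ALPL at least 8.95-fold higher at C+7, and RETN 3.37-fold, with 2 of its 3 C-14 arrays at the floor. The signal of HP and RETN on C-14 replicate 3 was itself well above background but lay under the common floor, which is set by the least sensitive array. All 3 genes entered the fit through their C+7 arrays alone, as 347 of the 1954 features did, and the median difference of those 347 was 0.64. All C+7 arrays lay above all C-14 arrays in 11% of the features, as they did in the brightest probe of all 3 genes, a count from which nothing follows since the genes were chosen on this contrast, and all below in 14.9%. In the fit 4.96% of features passed an adjusted p of 0.05 (limma), 1.84% with higher and 3.12% with lower signal at C+7. Without C+7 replicate 2 the count of 97 features dropped to 6, without C+7 replicate 3 to 5, without C+7 replicate 1 to 48 and without C-14 replicate 3 to 62.

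**Figure D3:**
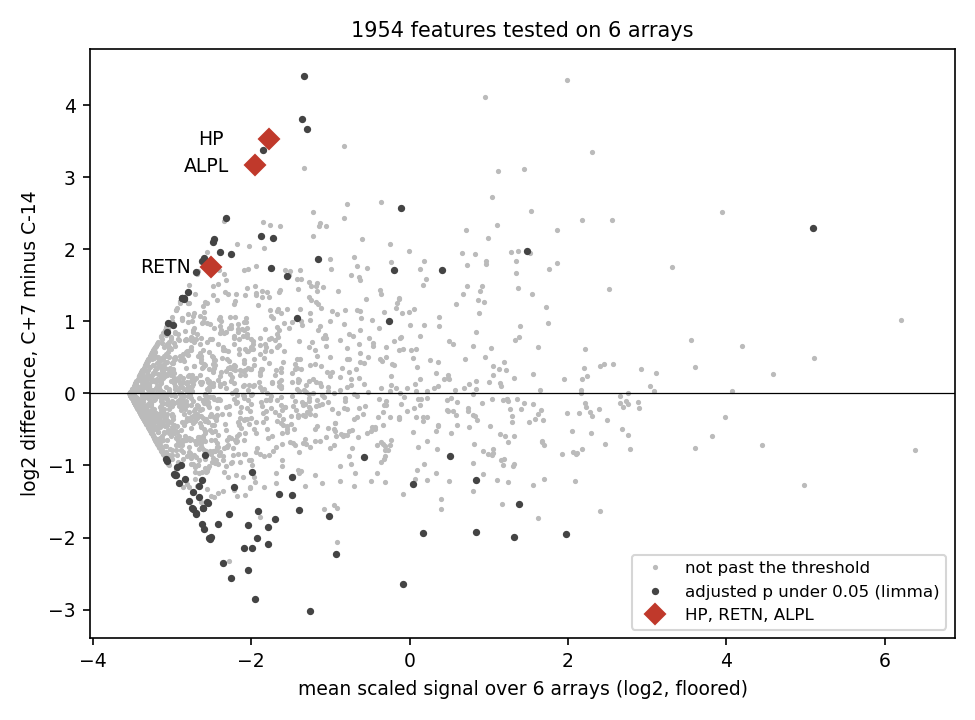
Log2 difference C+7 minus C-14 (vertical axis) against mean scaled log2 signal over 6 arrays (horizontal axis) for the 1954 features tested, dark where the adjusted p (limma) was under 0.05, with HP (3.53), ALPL (3.16) and RETN (1.75) as red diamonds. The genes lie along or near the upper edge of the cloud, which is where features at the floor on all C-14 arrays fall by construction.

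Over all 8 arrays, on the processed signal, none of the 8 probes cleared the background on each of the 4 arrays of either time, so none could be tested. In that fit 0 of 442 features (0%) passed and 6 had an unadjusted p under 0.05 (limma), the smallest adjusted p being 0.386. The values of the brightest probes over 4 arrays at each time differed by 4.10 for HP (SE 0.67), 4.45 for ALPL (SE 1.23) and 2.23 for RETN (SE 0.87) in scaled log2 processed signal. These means include spots at the lowest processed value of their array, as for ALPL and RETN on C+7 replicate 4, HP and RETN on C-14 replicate 4 and ALPL on C-14 replicate 2.

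HP and ALPL had 3 of their 5 nearest genes in common, and none of those near RETN was among them. Likeness was the root mean square difference between profiles over the 6 brighter arrays, each less its own mean on the log2 scale, among 1393 named genes. Nearest to HP were ARPC1B, part of the Arp2/3 complex that starts actin branches (0.31), LTF, the iron-binding granule protein lactoferrin (0.35), SERPINB4, a serpin protease inhibitor (0.45), SHISA5 (0.56) and PGLYRP1, a peptidoglycan-binding granule protein (0.60), against a median of 1.85 over all. Nearest to ALPL were LTF (0.24), THY1, itself a surface protein with a glycosylphosphatidylinositol anchor (0.39), ALOX5AP, needed for leukotriene synthesis (0.51), SHISA5 (0.53) and PGLYRP1 (0.53), against a median of 1.74. HP and ALPL were 0.56 apart, RETN was 0.92 from HP and 0.85 from ALPL.

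LTF had 187, 284, 409 and 2.38 on C+7 replicates 1 to 4, against -2.0, -0.278, -3.57 and 3.03 on C-14 replicates 1 to 4 (background-subtracted intensity). Like ALPL it was highest on C+7 replicate 3 and not well above background on any of the 3 brighter C-14 arrays. THY1 had 75.2, 132, 284 and 12 on the C+7 arrays, against 4.83, 21.8, 4.03 and 3.98 on the C-14 arrays. Nearest to RETN were PRDX5, an antioxidant peroxiredoxin (0.15), ASIP, the agouti signalling protein (0.17), LOC781977 (0.21), DEFB7, a beta-defensin (0.28), and AP1S1, a clathrin adaptor subunit (0.28), against a median of 1.02. PRDX5 had 219, 284, 310 and -0.518 on the C+7 arrays, against 126, 83.6, 169 and 1.56 on the C-14 arrays, and DEFB7 had 541, 1145, 680 and 3.42, against 333, 281, 567 and 6.97. The measure follows the contrast on which the genes were chosen, so features with a difference of like size score as near, and the neighbours' own differences between the times add nothing to it.

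**Figure D4:**
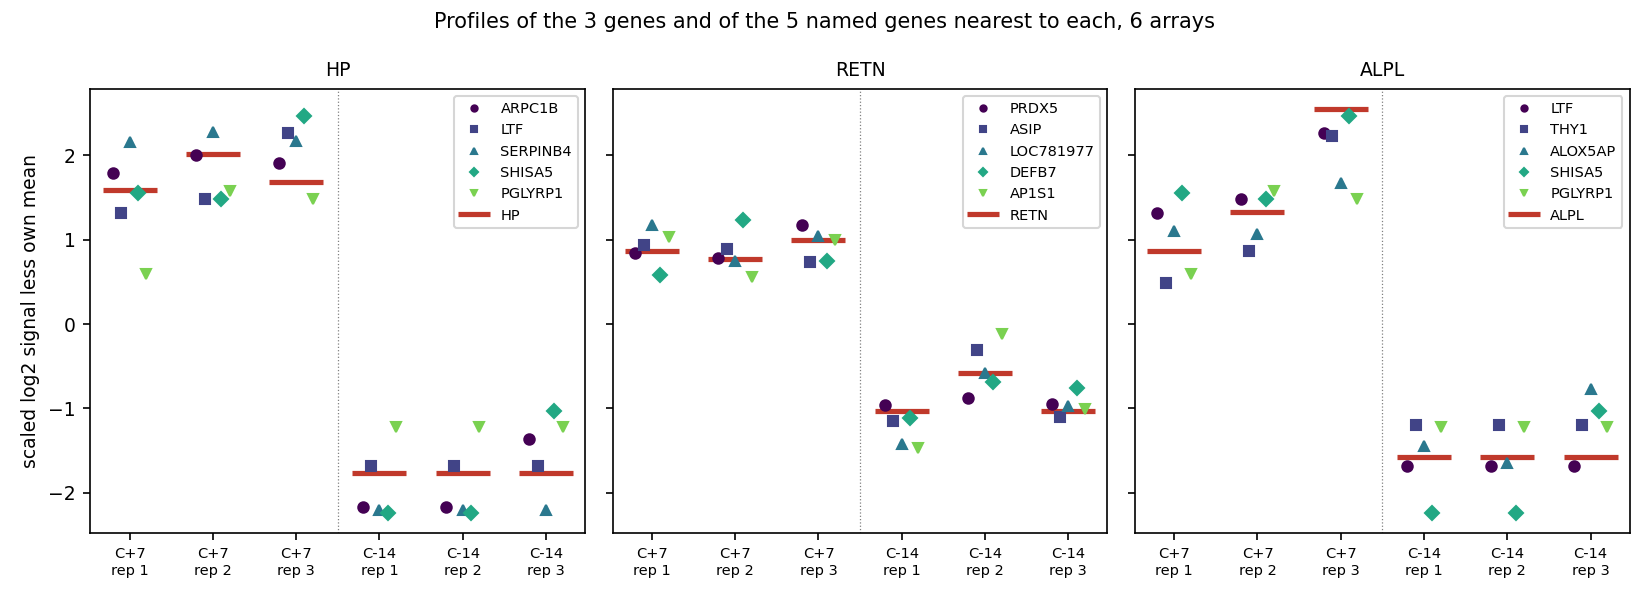
Scaled log2 signal less the gene's own mean (vertical axis) on 3 C+7 and 3 C-14 arrays (horizontal axis) for HP, RETN and ALPL (red bars) and the 5 named genes nearest to each (symbols). ALPL and its neighbours LTF and THY1 are highest on C+7 replicate 3, and the RETN neighbours stay close to RETN on all 6 arrays (0.15 to 0.28).

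Of the genes that handle what haptoglobin binds, the haem oxygenases and ferritin chains were detected at both times. Of 19 haemoglobin and iron genes on the array 7 were tested and 0 passed, against 4.96% of all features, so the count is near the background. Of the 7, 6 had positive and 1 had negative differences, and the median was 0.64 against -0.06 over all features. HMOX2, a haem oxygenase that degrades haem, was at 2.52 (SE 0.57; adjusted p by limma 0.0771), FTH1, a ferritin chain that stores iron, at 1.84 (SE 1.78), and FTL, the other ferritin chain, at -0.77 (SE 0.24). HMOX1, the inducible haem oxygenase, was well above background on 3 C+7 and 2 C-14 arrays and at 0.69 (SE 0.35). CD163, the receptor through which human macrophages take up haptoglobin bound to haemoglobin, was at background on every array. Of the erythroid markers HBA, a haemoglobin chain, was at 1.83 (SE 0.68; adjusted p by limma 0.230), while HBB, another chain, was well above background on 0 C+7 arrays and 1 C-14 array and AHSP on 0 C+7 and 2 C-14 arrays. The 6 on the array summed to 1.29 to 2.58 in scaled signal at C+7 and 0.417 to 1.24 at C-14, and without HBA to 0.109 to 0.144 at C+7 and 0.0783 to 0.187 at C-14. Their part in the HP values was not tested.

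Most other acute phase genes were under detection. Of 25 on the array 8 were well above background on at least 1 array, 2 could be tested and neither passed, against 4.96% of all features. Their median was 0.23 against -0.06 over all features, and so few tested genes show nothing about the list. HPX, a haem-binding plasma protein, was at 0.45 (SE 0.55) and IL1RN, the antagonist of the interleukin-1 receptor, at 0.00 with both times at the floor. The serum amyloid genes SAA2, SAA3 and SAA4 and CRP, LBP, ORM1 and ITIH4 were not well above background on any of the 8 arrays. Of liver markers, the organ that secretes haptoglobin into blood, ALB, APOA1, TTR, SERPINC1, FGB and TF were not well above background on any array, and AHSG was on 1 C-14 array. The summed scaled signal of the 7 liver markers was 0.0210 to 0.179 at C+7 and 0.0217 to 0.185 at C-14.

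Among genes tied to resistin 7 of 17 on the array were tested and 0 passed, against 4.96% of all features, and the median was -0.11 against -0.06 over all. CAP1, to which resistin binds on human monocytes, was at 0.95 (SE 0.79) and at -0.12 on its other probe. DCN, the matrix proteoglycan decorin, was at 1.71 (SE 0.33; adjusted p by limma 0.0553), and MYD88, an adaptor of Toll-like receptors, at -0.92 (SE 0.95). TLR4, another proposed resistin receptor in humans, was well above background on 0 C+7 arrays and 1 C-14 array. Of the adipokine and insulin receptor list only the glucose transporter SLC2A3 was tested, at 0.37 (SE 0.41). Of 5 adipocyte markers LEP was well above background on 2 C+7 arrays and LPL on 1 C-14 array, while PLIN1, FABP4 and CIDEC were on none, with summed scaled signal of 0.103 to 0.114 at C+7 and 0.0191 to 0.0989 at C-14.

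For ALPL, the related enzymes were mostly under detection. Of 24 phosphatase and nucleotide genes on the array 2 were tested and neither passed, against 4.96% of all features, a count too small to read. ACP5, the tartrate-resistant acid phosphatase, was at 0.045 (SE 0.22). ACP1 was at -0.11 (SE 0.14), with every brighter C+7 array at the floor. ALPI, the intestinal alkaline phosphatase, PHOSPHO1 and ENPP1, which makes pyrophosphate, stayed at background on all 8 arrays. Of the genes that build the glycosylphosphatidylinositol anchor 6 of 18 were tested and 0 passed, against 4.96% of all features. There were 1 positive and 5 negative differences and a median of -0.35, against -0.06 over all features. PIGC was at -0.71 (SE 0.45), DPM3 at -0.52 (SE 0.13) and PGAP2 at -0.52 (SE 0.33). PIGP and PIGS, also negative, lay at the floor on every brighter C+7 array, so their signs are tied to the filter. Of the secretory vesicle and surface list 3 of 16 were tested and 0 passed, against 4.96% of all features, again too few to read. PLAUR, the urokinase receptor, which has the same kind of anchor, was at 0.69 (SE 0.28) and STXBP2 at -0.37 (SE 0.34). The integrin chain ITGB2 was at -0.21 (SE 0.35; 1.17 and -0.11 on its other probes).

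Of the proteins stored in specific and gelatinase granules, LTF, PGLYRP1, MMP9 and TCN1 rose. Of 18 on the array 7 were tested, 4 rose, 0 fell and 3 did not pass, with a median of 1.68, against 1.84% higher and a median of -0.06 over all features. LTF was at least 10.4-fold higher at C+7 (log2 3.37, SE 0.28, adjusted p by limma 0.00886, and log2 1.83 on its other probe). PGLYRP1 was at least 5.40-fold, the gelatinase MMP9 at least 4.40-fold and TCN1, a vitamin B12 binder of specific granules, at least 3.21-fold higher at C+7. These 4 lay at the floor on all 3 C-14 arrays and entered through the C+7 arrays alone. Of the 347 features that entered that way 25 rose and 0 fell, so the direction of the 4 is tied to the filter and their count supports nothing about granule genes. CATHL2, a cathelicidin, was at 1.5 (SE 0.33; adjusted p by limma 0.0735), CHI3L1 at -0.67 (SE 0.31) and LYZ, lysozyme, at -0.35 (SE 0.17). CATHL2 lay at the floor on all 3 C-14 arrays and CHI3L1 on all 3 C+7 arrays, so their signs are tied to the filter too. Of the 4 that rose, 0 passed without C+7 replicate 2, LTF alone without C+7 replicate 3, 3 without C+7 replicate 1, and LTF and MMP9 without any 1 C-14 array. With C-14 replicate 4 added or the floor raised 0 of the 4 passed.

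The few tested regulators of granulocyte maturation and of the glucocorticoid response did not pass, against 4.96% of all features that did. CEBPA was at 0.93 (SE 0.49), CEBPE, which drives specific granule genes, at -0.31 (SE 0.14) with all C+7 arrays at the floor, and no other of the 12 genes on the array was tested. NFKBIA, the inhibitor of NF-kB, was at -1.28 (SE 0.30; adjusted p by limma 0.0825), the phosphatase DUSP1 at -0.34 (SE 0.26) and ANXA1 at 0.17 (SE 0.53).

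Markers of lymphocytes and eosinophils were lower at C+7 on the same arrays. The summed scaled signal of the 7 T cell markers was 1.11 to 1.37 at C+7 and 3.94 to 4.45 at C-14, of the 7 NK cell markers 0.142 to 0.226 at C+7 and 0.332 to 0.540 at C-14, and of the 2 eosinophil markers 0.139 to 0.161 at C+7 and 1.03 to 1.37 at C-14. CD247 and CD3E of 3 T cell markers tested and GNLY of 2 NK cell markers fell (limma), against 3.12% of all features. The single eosinophil marker tested, ALOX15, fell too. CD3E and GNLY entered through the C-14 arrays alone. Of the 620 features that entered that way 31 fell and 0 rose, so the direction of CD3E and GNLY is tied to the filter. CD247 and ALOX15 were well above background on all 6 brighter arrays. The 10 neutrophil markers summed to 70.7 to 86.9 at C+7 and 12.1 to 25.4 at C-14, nearly all of it S100A12. Without S100A12, in sums taken after seeing the data, the other 9 came to 1.06 to 1.27 at C+7 and 0.828 to 1.24 at C-14. Of 6 neutrophil markers tested S100A12 (2.29, and 0.57 on another probe) and MMP9 rose, against 1.84% of all features. MMP9 entered through the C+7 arrays alone, a way by which 25 of 347 features rose and 0 fell. CXCR1, a chemokine receptor, was at -1.25 (SE 0.25, adjusted p by limma 0.0580) and CXCR2 at -0.06. Besides LTF, given above with the granule proteins, 7 markers passed: S100A12, MMP9, CD247, CD3E, GNLY, ALOX15 and CSF1R. Of these 7, ALOX15 alone passed without C+7 replicate 2 or without C+7 replicate 3, and 0 did with C-14 replicate 4 added. Monocyte markers, another myeloid source of RETN in humans, summed to 2.86 to 3.06 at C+7 and 3.41 to 5.11 at C-14, CSF1R fell and LYZ did not pass. Immature granulocyte markers summed to 0.837 to 1.54 at C+7 and 0.352 to 0.412 at C-14, and without LTF to 0.147 to 0.202 at C+7 and 0.352 to 0.412 at C-14. LTF rose, and the other 3 tested were at -0.67 (CHI3L1), -0.31 (CEBPE) and -0.02 (BPI). These 3 entered through the C-14 arrays alone and lay at the floor on every brighter C+7 array. Their differences could not be positive, so their signs are tied to the filter. In bulk RNA fewer cells of a type and less RNA per cell cannot be told apart, and the part of the cell mix in the HP, RETN and ALPL values was not tested.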

How the data were processed

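The scanner files that the authors deposited give the Cy3 intensity of each spot on 1-colour arrays, made with Agilent Feature Extraction, version 10.10.1.1 with protocol GE1_1010_Sep10 per the file headers and version 9.1 per the submitters' processing notes. Per the file headers, the probe annotation used build UMD_3.1. The authors deposited background-subtracted and processed intensity side by side. On C-14 replicate 3 the processed values also carry a multiplicative surface correction (root mean square 1.83), so the subtracted values lead here. Log2 values of these arrays were also deposited by the authors as a series matrix. Its rows were matched to probes by the order of probe names in the scanner files (lowest correlation of array differences 0.9998), and its column medians lay between -0.13 and 0.03, except -2.61 on C-14 replicate 3. Its scale and centring are not stated in the sources used here.

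Control and outlier spots were left out and spots of a probe averaged. Accessions were named through RefSeq genes of assembly ARS-UCD2.0, for names alone, which gave 26832 probes a symbol. Testing needed every array of at least 1 time to be well above background, and a gene was represented by its brightest such probe. "At least" marks folds against the floor. Fits used limma 3.58.1 in R 4.3.3 (two-sided, Benjamini-Hochberg), 8 arrays with log2 processed intensity scaled over 115 probes, and 6 arrays as described above. P-values measure only the spread between these samples, and are too small where arrays of a time share a cow. Both times may also hold the same cows, and the fits without a block ignore such a pairing. The number of arrays limits the precision. The planned normexp correction used median spot signal, since the files hold no mean. Members, lists and the choice of 6 arrays were made with earlier results of these data known. Named list genes are those past the threshold and the 3 largest others of each list; HMOX1, other marker genes and genes given as undetected were picked after their values were seen. Alternatives were other scalings, background corrections, signals, floors, arrays, filters and a replicate block. The fits were tested on simulated data.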

Additional observations from a re-analysis of the deposited data

Results flagged for a closer look

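Among 24 groups of 4 arrays examined for an array far from the other 3, 3 held one, where chance gives about 1 in 20. All concern the C-14 arrays as a whole and none a probe of HP, RETN or ALPL. On C-14 replicate 3 the surface correction had a root mean square of 1.83, against 0 on the other C-14 arrays, and 0.00228% of its spots lay at the lowest processed value, against 73.4% to 80.4%. On C-14 replicate 2 the median local background was 45, against 41 on each of the others.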

How the results depend on the processing

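The count of features past the threshold on 6 arrays (97) became 53 with normexp, 11 with processed signal, 24 with a higher floor, 9 with C-14 replicate 4 added, 45 among features detected on all 6 arrays, 0 with the replicate block and 5 to 118 with an array left out. The split of 36 higher and 61 lower was 51 and 2 with normexp and 13 and 86 with scaling over all probes, the median of all features being 0.68 with normexp and -0.58 with that scaling. The 8-array count of 0 became 1 without a filter and 0 to 1 with an array left out. Same-numbered arrays correlated at 0.09, -0.26 and 0.26 in their deviations from the group means, and differently numbered ones at -0.45 to 0.29. With 3 arrays at each time this cannot show whether the numbers pair the samples. A block cannot move a difference of means here by construction.

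HP on 6 arrays (3.53) was 3.33 with scaling over all probes, 2.77 with normexp, 3.22 with processed signal, 2.53 with the floor raised by 1, 0.74 with C-14 replicate 4 added (which raises the floor), 5.03 without a floor (chosen after seeing the data, as for the other genes), 3.38 to 3.76 with an array left out, and 0.38 and 0 on its other probes. RETN (1.75) was 1.51 with scaling over all probes, 1.52 with normexp, 0.90 with the raised floor, 0 with that array, 2.29 without a floor, 1.64 to 1.97 with an array left out, and 0.043 on its other probe. ALPL (3.16) was 2.16 with the raised floor, 0.49 with that array, 6.07 without a floor, 2.87 to 3.50 with an array left out, and 0 on both other probes. On 8 arrays normexp gave HP 2.12 and ALPL 2.24, and subtracted signal with a floor HP 0.65, ALPL 0.54 and RETN 0. Leaving out an array gave HP 3.8 to 4.38, ALPL 3.74 to 5.23 and RETN 1.70 to 2.87. None of these settings turned the direction of a brightest probe, though some brought RETN to 0. The cause of these shifts was not tested, except that a higher floor shrinks differences by construction.

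Signs that turned belonged to genes that did not pass. With normexp ACP1 was at 0.77, CEBPE at 0.65, CHI3L1 at 0.55, DUSP1 at 0.43, PGAP2 at 0.33, PIGC at 0.36 and STXBP2 at 0.43. With scaling over all probes ACP5 was at -0.67, ANXA1 at -0.47, HPX at -0.18 and SLC2A3 at -0.27. With processed signal CEBPA was at -0.46, DPM3 at 0.035, DUSP1 at 0.0023, LYZ at 0.016 and STXBP2 at 0.0049. With C-14 replicate 4 added CEBPA was at -0.25 and LYZ at 0.11. Leaving out an array gave ACP5 -0.19 to 0.20, ANXA1 -0.35 to 0.61, FTH1 -0.20 to 3.03 and SLC2A3 -0.055 to 0.69.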

Other observations

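On C-14 replicate 3 the processed and background-subtracted signals of the same spot parted for these genes. HP probe A_73_P101951 had a processed intensity of 82.9 beside a subtracted one of -3.26, and HP A_73_P400651 had 95.1 beside 46.9. RETN A_73_P038071 had 27.5 beside 48.3 and RETN A_73_117202 4.46 beside 20.5. ALPL A_73_P108351 had 7.80 beside 15.0 and ALPL A_73_121258 10.9 beside -9.19, so the direction of the gap differed between probes of one gene.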
